A study of Saccharomyces cerevisiae with 18 samples.

Results

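The ribonucleotide reductase and Dun1 pathway of budding yeast sets the supply of DNA precursors, and 9 of its genes were followed, chosen by name from 7126 features. They are the large subunits of ribonucleotide reductase, RNR1 (YER070W) and RNR3 (YIL066C), its small subunits, RNR2 (YJL026W) and RNR4 (YGR180C), and its protein inhibitors, HUG1 (YML058W-A) and SML1 (YML058W). The others are the checkpoint kinase DUN1 (YDL101C), the repressor RFX1 (YLR176C), and MAG1 (YER142C), a DNA glycosylase gene. All 9 were present in the deposited table and all 9 passed the filter on low values, a mean of at least 10 normalized counts.

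Messenger RNA had been sequenced from 18 libraries of strain BY4741, grown in rich glucose medium (YPD) at 30 °C to an OD600 between 1.2 and 1.5, in 6 groups of 3 biological replicates. Every strain carried a tag, on Rvb1 in 9 libraries and on Rvb2 in 9, and each tagged background held a wild type, a strain without PIH1 and a strain without TAH1. Rvb1 and Rvb2 are paired AAA+ ATPases, and Pih1 and Tah1 join them in the chaperone complex R2TP. No untagged strain was analysed here, so the wild type libraries carry a tag too. No source used here states the kind of tag, how the genes were deleted or how many clones were used.

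Ribonucleotide reductase turns ribonucleotides into deoxyribonucleotides, the step that limits the building of DNA. In budding yeast, damaged or stalled DNA activates the kinases Mec1 and Rad53, Rad53 activates Dun1, and Dun1 has the inhibitor Sml1 destroyed and the repressor Rfx1, also called Crt1, taken off the promoters of RNR2, RNR3, RNR4 and HUG1. RNR1 is known as a target of MBF, the transcription factor of the G1 to S transition, while RNR3 is known to be nearly silent until damage occurs. MAG1 encodes a glycosylase that removes alkylated bases and is itself inducible by damage.

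Promoter stretches that carry motifs of these regulators are printed to show the letters held, and not every match is printed. Some of the 9 hold the motif of 1 regulator, some hold both and some hold neither. The sequence is that of sacCer3, read 5′ to 3′ on the strand of the gene. The first set holds the Rfx1 motif, the X-box, searched on both strands as GTTGCC and as the longer TTGCCATGG, which shares TTGCC with it. Capitals mark these letters or their reverse complements.
RNR2, chrX:391954-392053, + strand: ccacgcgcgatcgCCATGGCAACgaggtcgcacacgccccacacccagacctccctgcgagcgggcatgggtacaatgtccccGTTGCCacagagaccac
RNR3, chrIX:240949-241008, - strand: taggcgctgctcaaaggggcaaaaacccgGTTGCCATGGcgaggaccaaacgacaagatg
RNR4, chrVII:856662-856721, - strand: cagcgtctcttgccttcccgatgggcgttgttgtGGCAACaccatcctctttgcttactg
HUG1, chrXIII:158530-158609, + strand: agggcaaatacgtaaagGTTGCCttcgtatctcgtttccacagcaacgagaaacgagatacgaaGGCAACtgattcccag

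In the 600 bp before the start codon, GTTGCC stood before 16.6% of 5999 protein-coding genes and TTGCCATGG before 0.6%. RNR2 held 3 copies of GTTGCC and 1 of TTGCCATGG, and RNR3 held 1 of each. HUG1 held 2 of GTTGCC, and RNR4 and RNR1 held 1. The copies at -476 before RNR2 and at -169 before RNR1, in bases from the start codon, are not printed. In RNR2 the printed stretch lies inside YJL027C, an annotated reading frame on the other strand. No match was present before SML1, DUN1, RFX1 or MAG1, which says only that these letters are not in that window.

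The second set holds the MBF motif, ACGCGT, which reads the same on both strands and is in capitals.
RNR1, chrV:298450-298649, + strand: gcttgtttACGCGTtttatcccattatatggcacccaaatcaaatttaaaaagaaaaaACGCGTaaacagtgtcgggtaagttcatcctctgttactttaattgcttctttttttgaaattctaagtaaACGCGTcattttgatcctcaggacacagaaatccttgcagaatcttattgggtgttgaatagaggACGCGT
RNR3, chrIX:240869-240918, - strand: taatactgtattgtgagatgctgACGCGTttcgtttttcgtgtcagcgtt
DUN1, chrIV:281989-282038, - strand: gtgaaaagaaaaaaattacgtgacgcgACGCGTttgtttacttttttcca

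ACGCGT stood before 6.33% of the 5999 genes. RNR1 held 4 copies, and it was the only gene of the 5999 with at least 4 (0.0167%). RNR3 held 2, 1 of them printed, and DUN1 held 1. A match is a description of the sequence, and binding was not measured here.

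Facts of the whole series that touch these genes are as follows. The deleted gene was at 6 ± 3 and 3 ± 2 normalized counts in the PIH1 deletions and at 2.33 ± 0.58 and 0 in the TAH1 deletions (mean ± SD, n = 3), against 140 to 185 for either gene in the wild types. RVB1 stood at 975 in the Rvb1-tagged wild type, 657 in its PIH1 deletion and 501 in its TAH1 deletion, and at 903, 1647 and 1639 in the same order with tagged Rvb2. RVB2 stood at 882 in the Rvb2-tagged wild type, 311 in its PIH1 deletion and 521 in its TAH1 deletion. In the Rvb1-tagged wild type, replicate 2 differed from replicates 1 and 3 far more than those did from each other (mean chi-square per gene 27.4 and 26.9, against 1.53 between those 2). Replicate 1 of the Rvb2-tagged wild type lay 9.28 and 14.2 from its group, against 2.33 between the others, and its labels disagree on the tag, so the title was followed. In the Rvb2-tagged TAH1 deletion the 444 tested genes of chromosome XVI had a median log2 change of 0.97, while none of the 9 genes lies on that chromosome. The LEU2, URA3 and MET17 genes, which BY4741 lacks, were at 0 in all 18 libraries. Mating type a genes summed to 12742 to 18676 counts, BY4741 being of that mating type, and of 4 genes that alpha cells express MF(ALPHA)1 had 0 to 11, STE3 1 to 36, MF(ALPHA)2 34 to 73 and SAG1 256 to 492.

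The 9 genes spanned a wide range of levels. Levels are per kilobase of annotated gene length, averaged over the 18 libraries. SML1 was the highest at 6209 normalized counts per kb, above 97.4% of 5890 annotated genes with any counts. RNR4 followed at 3029, RNR1 at 1360 and RNR2 at 1112 counts per kb. HUG1 stood at 152, DUN1 at 143, MAG1 at 112 and RFX1 at 62.3. RNR3 was the lowest at 16.9 counts per kb, above 5.11% of genes. The order depends on the division by length, which is 315 bp for SML1 and 207 bp for HUG1. In mean counts RNR1 (3628) and RNR4 (3144) lay above SML1 (1956), and HUG1 (31.5) lay below RNR3 (44.1). HUG1, DUN1 and MAG1 overlapped widely over the libraries (48.3 to 377, 79.8 to 203 and 61.7 to 180 counts per kb), so their order is not resolved, while the lowest library of RNR4 (2512) lay above the highest of RNR1 (1557). RNR1 and RNR2 overlapped as well (1220 to 1557 and 988 to 1369). Replicates agreed best for RNR4 and SML1, with a median coefficient of variation over the groups of 3.32% and 3.33%, and least for HUG1, at 22.3%, and RNR3, at 14.2%.

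**Figure D1:**
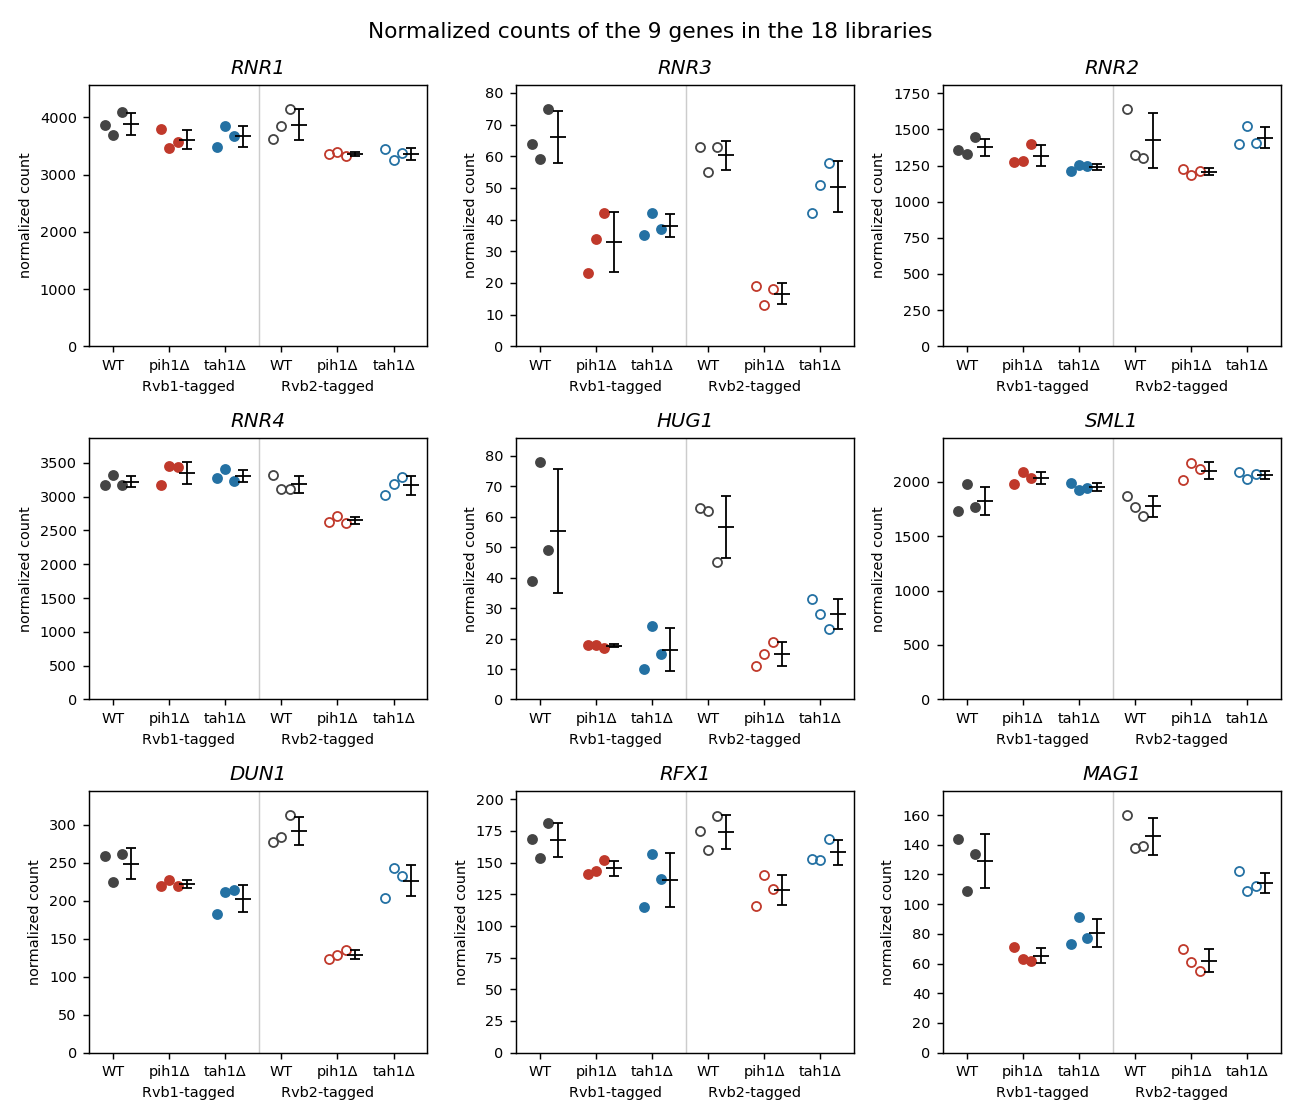
Normalized counts (y axis, linear, from 0) of each gene in the 18 libraries, by strain (x axis; filled circles Rvb1-tagged, open circles Rvb2-tagged); bars give mean ± SD of 3 libraries. HUG1 lies at 39 to 78 in the 6 wild type libraries and at 10 to 33 in the 12 deletion libraries, and DUN1 lies at 123 to 135 in the Rvb2-tagged PIH1 deletion, under all other libraries.

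The deletions were compared with the wild type of their own background, so the PIH1 and TAH1 comparisons of a background share 3 wild type libraries. HUG1 and MAG1 fell in each of the 4 deletion strains, which 99 of 5825 tested genes did (1.7%). RNR3 fell in 3 of the 4 strains and DUN1 in 3. SML1 rose in 3. RNR2, RNR4 and RFX1 fell in the Rvb2-tagged PIH1 deletion and did not pass the test in the other 3 strains, and RNR1 fell in both Rvb2-tagged deletions. All tests of single genes were limma fits across 5825 genes, with Benjamini-Hochberg adjustment and a threshold of 0.05 for the adjusted p. They were made on log2(normalized count + 1), a scale that understates the change of low genes such as RNR3 and HUG1.

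In the Rvb1-tagged PIH1 deletion 4 of the 9 genes passed, 1 higher and 3 lower, where 38% of all tested genes passed, 19.2% higher and 18.7% lower. In the Rvb1-tagged TAH1 deletion 4 passed, all lower, against 10.8% of all genes, with 6.28% higher and 4.48% lower. These calls rest on a spread shared by all 6 groups. With only the libraries compared in the fit, 0 of the 9 passed there, and 74 of all tested genes in place of 627. In the Rvb2-tagged PIH1 deletion all 9 passed, 1 higher and 8 lower, against 69.6%, with 35.2% higher and 34.4% lower. In the Rvb2-tagged TAH1 deletion 5 passed, 1 higher and 4 lower, against 44.4%, with 23.8% higher and 20.6% lower. The shares for that deletion, here and below, count the 444 tested genes of chromosome XVI. In a limma fit without them 2106 genes passed in place of 2589. The median log2 change of the 9 was -0.16, -0.29, -0.44 and -0.20 in these 4 comparisons in order, beside 0.01, 0.00, 0.01 and 0.02 for all tested genes.

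**Figure D2:**
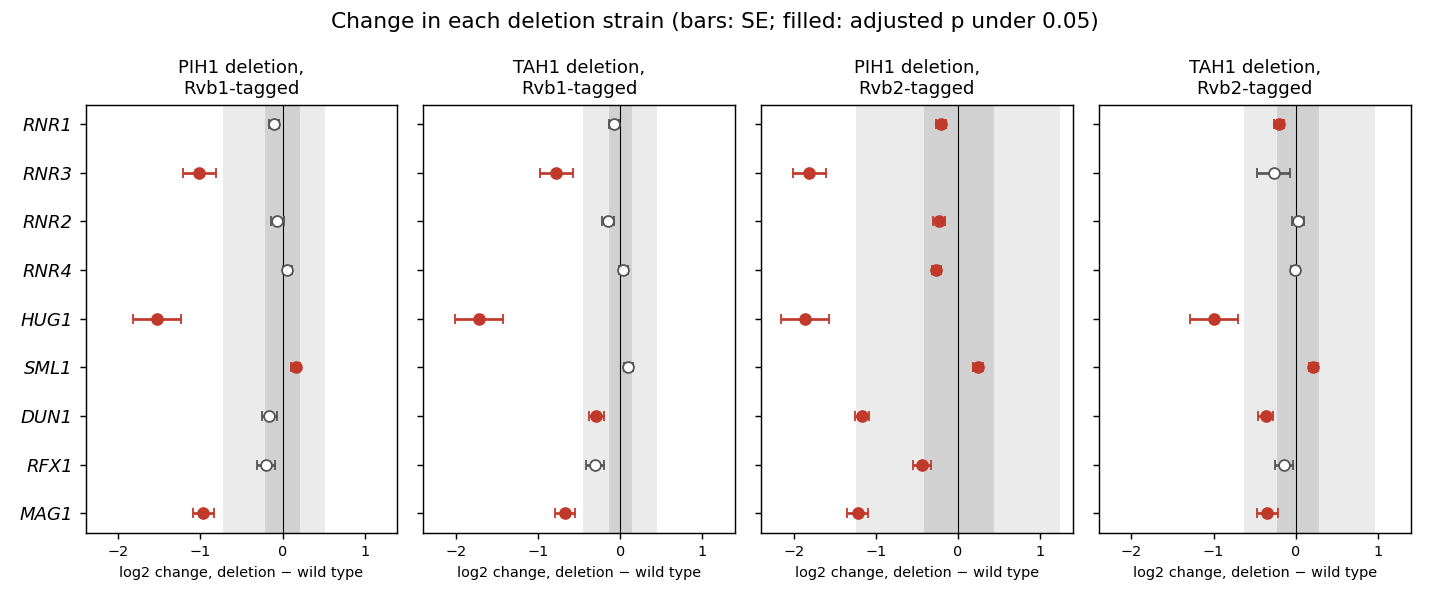
Log2 change of each gene in the 4 deletion strains against the wild type of the same background (x axis), with SE; filled red symbols have an adjusted p under 0.05, and the grey bands hold the middle 50% and 90% of 5825 genes. HUG1 lies left of the 90% band in all 4 panels and RNR3 in 3, while RNR1, RNR2, RNR4 and SML1 lie between -0.26 and 0.25.

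RNR1 encodes the large subunit used in normal growth and holds the catalytic and allosteric sites. Its counts were 3863, 3696 and 4088 in the Rvb1-tagged wild type, 3801, 3467 and 3572 in the PIH1 deletion, and 3476, 3850 and 3680 in the TAH1 deletion. These 3 groups overlapped. With tagged Rvb2 the counts were 3619, 3856 and 4153 in wild type, 3364, 3404 and 3330 without PIH1, and 3447, 3253 and 3385 without TAH1, so every deletion library lay below every wild type library. RNR1 fell by 0.20 ± 0.06 (log2 ± SE, adjusted p = 0.00688) without PIH1 and by 0.20 ± 0.06 (adjusted p = 0.0117) without TAH1 in that background. With tagged Rvb1 the changes were -0.10 ± 0.06 (adjusted p = 0.189) and -0.08 ± 0.06 (adjusted p = 0.403). The difference between the backgrounds was -0.10 (95% interval -0.28 to 0.08) for PIH1 and -0.12 (-0.30 to 0.06) for TAH1, and neither passed. Without Rvb2-tagged wild type replicate 3, or without TAH1 deletion replicate 2, the fall in the Rvb2-tagged TAH1 deletion missed the threshold (adjusted p = 0.0598 and 0.05).

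RNR3 encodes the alternative large subunit. Its counts were 64, 59 and 75 in the Rvb1-tagged wild type, 23, 34 and 42 without PIH1, and 35, 42 and 37 without TAH1. Neither deletion group reached the lowest wild type library. With tagged Rvb2 the counts were 63, 55 and 63 in wild type, 19, 13 and 18 without PIH1, and 42, 51 and 58 without TAH1. The PIH1 deletion lay far below its wild type, while the TAH1 deletion overlapped it. The log2 change was -1.01 ± 0.20 (adjusted p = 0.00101) and -0.78 ± 0.20 (adjusted p = 0.0201) without PIH1 and TAH1 with tagged Rvb1, and -1.81 ± 0.20 (adjusted p = 4.93e-07) without PIH1 with tagged Rvb2. Without TAH1 with tagged Rvb2 it was -0.27 ± 0.20 (adjusted p = 0.296, 95% interval -0.69 to 0.16). The fall in the Rvb1-tagged TAH1 deletion missed the threshold without wild type replicate 1 or 3 or TAH1 deletion replicate 1 or 3, with adjusted p-values of 0.0596, 0.106, 0.0735 and 0.0597. RNR1 and RNR3 are 77.0% identical over 2609 aligned coding bases, yet only 3 of 2632 stretches of 36 bases in RNR1, and 3 of 2575 in RNR3, were found elsewhere in the genome, so few reads of that length could be assigned to either.

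The share of RNR3 relative to RNR1 compares both large subunits within a library, so a factor common to all genes of the library cancels in it. In normalized counts per kb, RNR3 amounted to 1.73% ± 0.13 of RNR1 in the Rvb1-tagged wild type and 1.60% ± 0.17 in the Rvb2-tagged wild type (SD, n = 3). It was 0.941% ± 0.296 and 1.06% ± 0.05 without PIH1 and TAH1 with tagged Rvb1, and 0.507% ± 0.102 and 1.53% ± 0.26 with tagged Rvb2. All libraries of the first 3 of these deletion strains lay below their wild type, and those of the Rvb2-tagged TAH1 deletion did not. The test was made on another quantity, the log2 ratio of deposited FPKM + 1, in which RNR3 had whole-number values of 1 to 6 and the added 1 weighs on the ratio. That log2 ratio changed by -0.61, -0.49, -1.30 and -0.080 in the 4 deletions in the same order, and a two-sided exact permutation test gave p = 0.1, 0.1, 0.1 and 0.7, where 0.1 is the smallest p that 3 against 3 libraries can give. On normalized counts + 1 the changes were -0.91, -0.70, -1.61 and -0.063 (exact permutation p = 0.1, 0.1, 0.1 and 0.8). With 5 added to the FPKM in place of 1 they shrank to -0.28, -0.24 and -0.49 in the first 3 and turned to 0.042 in the last.

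**Figure D3:**
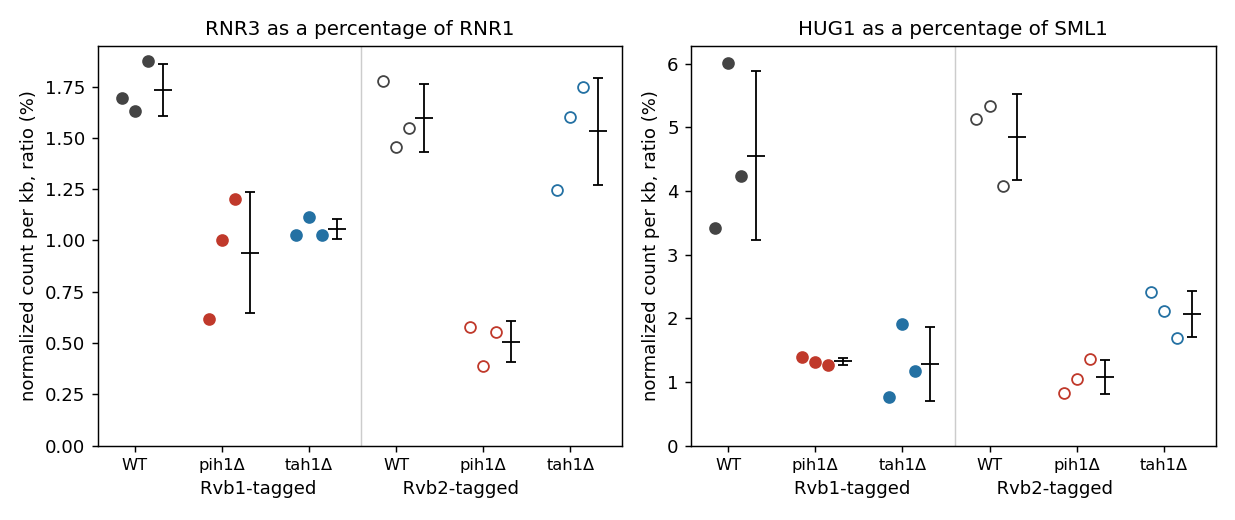
Ratio of RNR3 to RNR1 and of HUG1 to SML1, each in normalized counts per kb and in percent (y axis, from 0), in every library by strain (filled circles Rvb1-tagged, open circles Rvb2-tagged), with mean ± SD of 3 libraries. RNR3 lies at 0.390% to 0.577% of RNR1 in the Rvb2-tagged PIH1 deletion and at 1.46% to 1.87% in the wild types, and the HUG1 ratio lies under the wild type range of its background in all 4 deletion strains.

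RNR2 and RNR4 encode the small subunits, of which Rnr2 carries the diiron tyrosyl radical and Rnr4 is needed for that cofactor to be assembled. RNR2 had 1355, 1328 and 1444 counts in the Rvb1-tagged wild type, 1271, 1282 and 1401 without PIH1, and 1215, 1253 and 1249 without TAH1. With tagged Rvb2 it had 1643, 1326 and 1302 in wild type, 1228, 1185 and 1212 without PIH1, and 1402, 1526 and 1403 without TAH1. Replicate 1 of that wild type was the highest of all 18 libraries, and the PIH1 deletion lay below all 3 wild type libraries. RNR2 fell by 0.23 ± 0.07 on the log2 scale (adjusted p = 0.0111) in the Rvb2-tagged PIH1 deletion, and without wild type replicate 1 the change was -0.12 (adjusted p = 0.0718). In the other deletions it was -0.06 ± 0.07, -0.15 ± 0.07 and 0.03 ± 0.07 (adjusted p = 0.538, 0.193 and 0.792).

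RNR4 had 3170, 3315 and 3173 counts in the Rvb1-tagged wild type, 3168, 3454 and 3437 without PIH1, and 3270, 3408 and 3230 without TAH1. With tagged Rvb2 it had 3320, 3109 and 3110 in wild type, 2627, 2706 and 2607 without PIH1, and 3018, 3186 and 3289 without TAH1. The Rvb2-tagged PIH1 deletion lay below all other libraries. RNR4 fell there by 0.26 ± 0.05 on the log2 scale (adjusted p = 0.000234). In the other 3 deletions the changes were 0.06, 0.04 and -0.01 (SE 0.05, adjusted p = 0.406, 0.689 and 0.923), and their 95% intervals lay between -0.12 and 0.17. The ratio of RNR4 to RNR2 per kb was 271% ± 17.3 and 260% ± 23.2 in the wild types and between 253% and 308% in the deletions.

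HUG1 encodes a small protein that binds and inhibits ribonucleotide reductase and is among the most damage-inducible transcripts known in yeast. Its counts were 39, 78 and 49 in the Rvb1-tagged wild type, 18, 18 and 17 without PIH1, and 10, 24 and 15 without TAH1. With tagged Rvb2 they were 63, 62 and 45 in wild type, 11, 15 and 19 without PIH1, and 33, 28 and 23 without TAH1. Every deletion library lay below every wild type library. The log2 changes were -1.53 ± 0.29 (adjusted p = 0.000721), -1.72 ± 0.29 (adjusted p = 0.00108), -1.86 ± 0.29 (adjusted p = 2.22e-05) and -0.99 ± 0.29 (adjusted p = 0.0111) in the 4 deletions, in the order Rvb1-tagged PIH1 and TAH1 and Rvb2-tagged PIH1 and TAH1. By size of change HUG1 was the gene of rank 42, 10, 113 and 80 from the lowest among 5825. Without Rvb1-tagged wild type replicate 2, its highest library, the first 2 changes were -1.26 and -1.45 (adjusted p = 0.00197 and 0.000913). With only the libraries of the comparison in the fit, the change in the Rvb1-tagged TAH1 deletion had an adjusted p of 0.0802.

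SML1, which encodes the inhibitor that Dun1 removes, is the neighbour of HUG1. HUG1 spans chrXIII:158760-158966 and SML1 spans chrXIII:159383-159697, both on the + strand and 416 bp apart. SML1 moved the other way. Its counts were 1734, 1973 and 1763 in the Rvb1-tagged wild type, 1973, 2088 and 2034 without PIH1, and 1990, 1918 and 1939 without TAH1. With tagged Rvb2 they were 1868, 1766 and 1680 in wild type, 2013, 2171 and 2117 without PIH1, and 2086, 2020 and 2070 without TAH1. The groups did not overlap with tagged Rvb2, whereas with tagged Rvb1 wild type replicate 2 equalled the lowest PIH1 deletion library and lay within the TAH1 deletion group. SML1 rose by 0.16 ± 0.06 (adjusted p = 0.0363), 0.25 ± 0.06 (adjusted p = 0.000913) and 0.22 ± 0.06 (adjusted p = 0.00486) in the Rvb1-tagged PIH1 deletion and the Rvb2-tagged PIH1 and TAH1 deletions. In the Rvb1-tagged TAH1 deletion the change was 0.10 ± 0.06 (adjusted p = 0.275). Without wild type replicate 2 it was 0.16 with an adjusted p of 0.0298, and the call in the Rvb1-tagged PIH1 deletion was lost without wild type replicate 1 or 3 (adjusted p = 0.151 and 0.127) and without PIH1 deletion replicate 2 or 3 (0.116 and 0.0788). With quantile scaling that change was 0.09 (adjusted p = 0.147), and in a fit of those 6 libraries alone its adjusted p was 0.138.

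Per kb, HUG1 was at 4.56% ± 1.33 of SML1 in the Rvb1-tagged wild type and 4.85% ± 0.68 in the Rvb2-tagged wild type. In the deletions it was at 1.32% ± 0.06, 1.28% ± 0.58, 1.08% ± 0.27 and 2.07% ± 0.36. CMP2, which follows SML1 on the same strand, fell by 0.41 ± 0.08 in the Rvb2-tagged PIH1 deletion (adjusted p = 0.000309), where SML1 rose and HUG1 fell. NTE1, before HUG1 on the other strand, rose by 0.36 ± 0.09 and 0.63 ± 0.09 in the Rvb1-tagged and Rvb2-tagged PIH1 deletions (adjusted p = 0.00601 and 1.07e-05), where HUG1 fell and SML1 rose.

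DUN1 encodes the kinase itself. Its counts were 259, 225 and 262 in the Rvb1-tagged wild type, 219, 228 and 219 without PIH1, and 183, 212 and 214 without TAH1. With tagged Rvb2 they were 278, 284 and 313 in wild type, 123, 129 and 135 without PIH1, and 204, 243 and 233 without TAH1. The Rvb2-tagged PIH1 deletion lay below all 15 other libraries, with the nearest at 183. DUN1 fell there by 1.17 ± 0.09 on the log2 scale (adjusted p = 6.81e-09), a 2.25-fold decrease. It fell by 0.36 ± 0.09 (adjusted p = 0.00288) in the Rvb2-tagged TAH1 deletion and by 0.29 ± 0.09 (adjusted p = 0.0428) in the Rvb1-tagged TAH1 deletion. In the Rvb1-tagged PIH1 deletion the change was -0.16 ± 0.09 (adjusted p = 0.162). The call in the Rvb1-tagged TAH1 deletion held in 13 of 29 alternative analyses. Without wild type replicate 2 its adjusted p was 0.00594, and without wild type replicate 3 it was 0.178.

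RFX1 encodes the repressor that Dun1 signalling takes off the RNR promoters. Its counts were 169, 154 and 181 in the Rvb1-tagged wild type, 141, 143 and 152 without PIH1, and 115, 157 and 137 without TAH1. With tagged Rvb2 they were 175, 160 and 187 in wild type, 116, 140 and 129 without PIH1, and 153, 152 and 169 without TAH1. The wild type ranges of both backgrounds lay above the PIH1 deletions and overlapped the TAH1 deletions. RFX1 fell by 0.44 ± 0.11 on the log2 scale (adjusted p = 0.00178) in the Rvb2-tagged PIH1 deletion, and the other changes were -0.21, -0.31 and -0.14 (SE 0.11, adjusted p = 0.147, 0.0752 and 0.322). RFX1 is itself known to be repressed by its own product. In the Rvb1-tagged TAH1 deletion RFX1 had an adjusted p of 0.0249 without wild type replicate 2 and of 0.0335 without TAH1 deletion replicate 2.

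MAG1 encodes the glycosylase that starts base excision repair of alkylated DNA. Its counts were 144, 109 and 134 in the Rvb1-tagged wild type, 71, 63 and 62 without PIH1, and 73, 91 and 77 without TAH1. With tagged Rvb2 they were 160, 138 and 139 in wild type, 70, 61 and 55 without PIH1, and 122, 109 and 112 without TAH1. No deletion library reached its wild type range. MAG1 fell by 0.96 ± 0.12 (adjusted p = 2.04e-05), 0.67 ± 0.12 (adjusted p = 0.00221), 1.22 ± 0.12 (adjusted p = 2.05e-07) and 0.35 ± 0.12 (adjusted p = 0.0328) on the log2 scale in the 4 deletions, in the order given for HUG1. The last of these missed the threshold without Rvb2-tagged wild type replicate 1 (adjusted p = 0.115) and without TAH1 deletion replicate 2 or 3 (0.0963 and 0.0803). The fall in the Rvb1-tagged TAH1 deletion had an adjusted p of 0.0791 with only the libraries compared.

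DDI1, a damage-inducible gene read away from MAG1, starts 282 bp from it on the other strand, and the pair is known for a shared promoter. DDI1 rose by 0.20 ± 0.08 (adjusted p = 0.048) in the Rvb1-tagged PIH1 deletion, where MAG1 fell, and fell by 0.51 ± 0.08 (adjusted p = 1.66e-05) in the Rvb2-tagged PIH1 deletion. In the TAH1 deletions its changes were -0.19 and -0.05 (SE 0.08, adjusted p = 0.117 and 0.627). COX15, the neighbour on the other side of MAG1, fell by 0.53 ± 0.15 and 1.65 ± 0.15 in the PIH1 deletions (adjusted p = 0.0112 and 6.49e-08). Whether the counting used strand is not stated in any source used here, so reads of overlapping opposite transcripts might not be separated.

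The backgrounds were set against each other by the difference of the 2 deletion effects. For PIH1, 3 of the 9 genes differed, all with a lower value with tagged Rvb2, where 50.3% of all genes differed, 24.7% in that direction and 25.7% in the other. DUN1 differed most, by -1.01 ± 0.12 (adjusted p = 9.58e-06), followed by RNR3 with -0.80 ± 0.28 (adjusted p = 0.0272) and RNR4 with -0.32 ± 0.07 (adjusted p = 0.00185). HUG1 differed by -0.33 (95% interval -1.20 to 0.54) and MAG1 by -0.26 (-0.63 to 0.11), and neither passed. With quantile scaling MAG1 did pass, at -0.46 (adjusted p = 0.0412). The difference in RNR3 missed the threshold without any of 5 libraries, which were Rvb1-tagged wild type replicate 2, Rvb1-tagged PIH1 deletion replicates 2 and 3, Rvb2-tagged wild type replicate 3 and Rvb2-tagged PIH1 deletion replicate 2, with adjusted p-values from 0.0502 to 0.084.

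**Figure D4:**
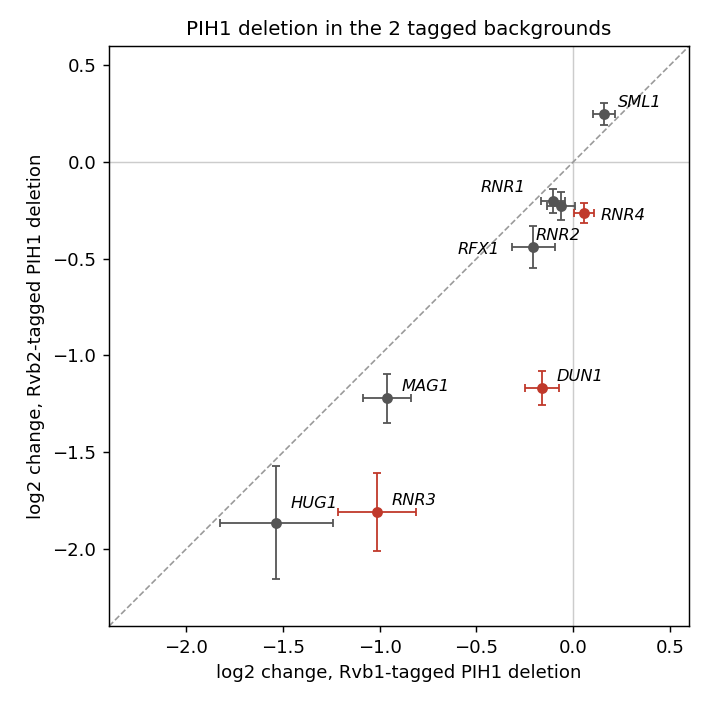
Log2 change of the 9 genes in the PIH1 deletion with tagged Rvb1 (x axis) and tagged Rvb2 (y axis), with SE; the dashed line marks equal changes and red symbols are the 3 genes whose difference had an adjusted p under 0.05. DUN1 lies at -0.16 and -1.17, the point farthest from the line.

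For TAH1, none of the 9 passed between backgrounds in the limma fit, where the lowest unadjusted p of the 9 was 0.0806 (MAG1). Of all genes 24.5% passed, 13% higher and 11.5% lower. In a limma fit without the genes of chromosome XVI, 918 genes passed in place of 1426. The intervals were wide for HUG1 (0.73, 95% interval -0.14 to 1.60) and RNR3 (0.51, -0.09 to 1.11). With array weights, which down-weight libraries far from their group, 4 passed, namely RNR2, RNR3, RFX1 and MAG1. The 2 wild types differed in none of the 9 genes by limma, where 0.206% of all genes passed, 0.0858% higher with tagged Rvb2 and 0.12% lower. Before adjustment 1 of the 9 was under the threshold, DUN1. Its log2 difference was 0.23 (Rvb2-tagged minus Rvb1-tagged, limma adjusted p = 0.143).

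Within a background, the PIH1 and TAH1 deletions were also compared directly. With tagged Rvb2, 7 of the 9 genes were lower without PIH1 than without TAH1. Of all genes 62.3% differed, 33.6% in that direction and 28.7% in the other. In a limma fit without the genes of chromosome XVI, 3208 genes passed in place of 3629. The largest differences were those of RNR3 (-1.54 ± 0.20, adjusted p = 5.12e-06), MAG1 (-0.88 ± 0.12, adjusted p = 1.37e-05), HUG1 (-0.87 ± 0.29, adjusted p = 0.0153) and DUN1 (-0.81 ± 0.09, adjusted p = 6.84e-07). RFX1, RNR4 and RNR2 differed by -0.30, -0.26 and -0.26. RFX1 missed the threshold with quantile scaling (-0.13, adjusted p = 0.316), without PIH1 deletion replicate 1 (-0.23, adjusted p = 0.112) and without TAH1 deletion replicate 3 (-0.25, adjusted p = 0.093). HUG1 missed it without replicate 1 of the PIH1 deletion (-0.68, adjusted p = 0.0789) or of the TAH1 deletion (-0.75, adjusted p = 0.0609). RNR1 and SML1 did not pass, at 0.00 (95% interval -0.13 to 0.13) and 0.03 (-0.09 to 0.15). With tagged Rvb1 none of the 9 passed in the limma fit, where 26.5% of all genes did, 12% higher and 14.5% lower. Before adjustment 1 of the 9 was under the threshold, MAG1. Its difference was -0.29 ± 0.12 (limma adjusted p = 0.0972).

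Genes around the pathway were counted from lists chosen with earlier results of these data known. Of 14 checkpoint genes, which sense damage and pass the signal to Dun1, 0 rose and 3 fell in the Rvb1-tagged PIH1 deletion, 0 and 1 in the Rvb1-tagged TAH1 deletion, 7 and 4 in the Rvb2-tagged PIH1 deletion, and 3 and 2 in the Rvb2-tagged TAH1 deletion. These counts stand beside 38%, 10.8%, 69.6% and 44.4% of all tested genes called in either direction in these comparisons. CSM3, part of the replication fork protection complex, fell in all 4 deletions, by 0.45, 0.54, 1.03 and 0.37 (SE 0.11). RAD53, the kinase above Dun1, fell by 0.25 ± 0.10 and 0.66 ± 0.10 without PIH1 (adjusted p = 0.0464 and 9.82e-06) and rose by 0.83 ± 0.10 in the Rvb2-tagged TAH1 deletion (adjusted p = 1.82e-06). RAD53 and DDC1, a subunit of the checkpoint clamp that rose there by 0.79 ± 0.10, lie on chromosome XVI, whose median change in those libraries was 0.97. RAD9, the adaptor for Rad53, rose by 0.78 in the Rvb2-tagged PIH1 deletion (adjusted p = 1.66e-05), as did MEC1 by 0.64 (adjusted p = 2.24e-05).

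Of 10 other regulators of the reductase, 2 rose and 0 fell, 1 rose and 0 fell, 2 rose and 5 fell, and 1 rose and 1 fell in the 4 deletions in the same order, beside 38%, 10.8%, 69.6% and 44.4% of all tested genes called in either direction. KAP122, an importin that carries the small subunits to the nucleus, rose by 0.34 ± 0.09 and 0.96 ± 0.09 in the PIH1 deletions (adjusted p = 0.0104 and 1.27e-07). WTM2 rose in both PIH1 deletions and in the Rvb1-tagged TAH1 deletion, by 0.33, 0.84 and 0.34 (SE 0.10). WTM1, its homologue that holds the small subunits in the nucleus, fell by 0.80 in the Rvb2-tagged PIH1 deletion (adjusted p = 7.26e-05). DIF1, which drives their import, did not pass in any of the 4 (-0.02 to 0.28). TUP1, of the corepressor that Rfx1 recruits, did not pass either (-0.11 to -0.01), while its partner CYC8 fell by 0.19 in the Rvb2-tagged PIH1 deletion (adjusted p = 0.0366).

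Of 13 genes for other steps of nucleotide supply or for the cofactor of Rnr2, 3 rose and 4 fell, 2 rose and 1 fell, 4 rose and 7 fell, and 2 rose and 6 fell, again beside 38%, 10.8%, 69.6% and 44.4% of all tested genes. YNK1, the nucleoside diphosphate kinase, fell in all 4 deletions, by 0.81, 0.54, 2.02 and 0.95 (SE 0.11). DRE2, which with TAH18 supplies electrons for the Rnr2 cofactor, rose in all 4, by 0.44, 0.24, 0.64 and 0.24. TAH18 also rose in all 4, by 0.31, 0.37, 0.88 and 1.25 (SE 0.10), and it lies on chromosome XVI. Thioredoxin genes, whose products reduce the enzyme after each turn, fell in the Rvb2-tagged strains, TRX1 by 0.78 and 0.30 and TRX2 by 1.08 and 0.55 without PIH1 and TAH1.

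Of 22 MBF and G1/S genes other than RNR1, 3 rose and 4 fell in the Rvb1-tagged PIH1 deletion, 0 rose and 0 fell in the Rvb1-tagged TAH1 deletion, 1 rose and 17 fell in the Rvb2-tagged PIH1 deletion, and 2 rose and 7 fell in the Rvb2-tagged TAH1 deletion. Of all tested genes 18.7%, 4.48%, 34.4% and 20.6% were lower in these comparisons. The median change of the list was -0.32 in the Rvb2-tagged PIH1 deletion, beside -0.20 for RNR1. TOS4 and RFA2, a transcriptional regulator and a subunit of replication protein A, fell there by 0.97 and 0.79. POL2, the catalytic subunit of DNA polymerase epsilon, was the member that rose, by 0.33 (adjusted p = 0.00143). Of 8 core histone genes, which mark S phase, 5 fell and 0 rose in the Rvb2-tagged PIH1 deletion, where 34.4% of all tested genes were lower. In both the Rvb1-tagged PIH1 deletion and the Rvb2-tagged TAH1 deletion 2 rose and 0 fell, where 19.2% and 23.8% of all genes were higher, and in the Rvb1-tagged TAH1 deletion 0 rose and 0 fell.

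Of 16 other damage-inducible genes 14 could be tested, and 3 rose and 3 fell, 0 rose and 2 fell, 2 rose and 7 fell, and 1 rose and 2 fell, where 38%, 10.8%, 69.6% and 44.4% of all tested genes passed. DDR48 and PHR1, a stress protein and the photolyase, fell by 2.73 and 2.23 in the Rvb2-tagged PIH1 deletion (adjusted p = 3.27e-09 and 4.25e-07). RAD16, of nucleotide excision repair, rose by 0.39, 0.65 and 0.91 in both PIH1 deletions and the Rvb2-tagged TAH1 deletion. Of 7 base excision repair genes other than MAG1, 0 rose and 1 fell, 0 and 0, 3 and 1, and 2 and 1 in the 4 deletions, set against the same shares of all genes. UNG1, the uracil glycosylase, fell by 0.38 and 0.32 (SE 0.11) in the Rvb2-tagged strains, where NTG1 and NTG2, glycosylases of oxidised bases, rose by 0.23 to 0.33. Of 7 meiosis genes 0 were higher and 3 lower, 0 and 0, 4 and 2, and 1 and 1 in the 4 deletions, and in the Rvb2-tagged PIH1 deletion their counts summed to 643 to 719 against 449 to 465 in its wild type. Of 6 mating type a genes, 3 were higher and 2 lower, 5 and 0, 4 and 2, and 1 and 3. Beside these and the meiosis counts, 19.2%, 6.28%, 35.2% and 23.8% of all tested genes were higher in the 4 deletions. The shares that were lower were 18.7%, 4.48%, 34.4% and 20.6%. The 4 genes of alpha cells summed to 470 to 551 counts in the Rvb2-tagged PIH1 deletion, 417 to 428 in the Rvb2-tagged TAH1 deletion and 343 to 357 in the wild type of that background. The part of these lists in the values above was not tested.

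The 9 genes were also compared among themselves over the 18 libraries, as a description. The highest Pearson correlations of log2 values were 0.89 for DUN1 and RNR3, 0.84 for RNR3 and MAG1, and 0.83 for HUG1 and MAG1. Over the 6 group means these were 0.93, 0.91 and 0.93, while after subtracting the group means they were 0.37, 0.00 and -0.11. Among the subunit genes, pairs ran over libraries from 0.05 (RNR1 and RNR2) to 0.69 (RNR2 and RNR3). SML1 and RNR1 ran opposite to each other, at -0.86 over libraries, -0.94 over group means and -0.67 within groups. Both are read from the same libraries and share their scaling.

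The 3 genes most like each of the 9 were sought among the tested genes outside the 9. Likeness was the Pearson correlation of log2 values over the 18 libraries. For HUG1 they were PDR5 (0.867), an efflux pump that fell by 1.75 to 2.22 in the 4 deletions, COX23 (0.854) and ATG40 (0.848). For MAG1 they included EMP46 (0.952) and ANK1, for RNR3 they were the glucose-repressed hexokinase HXK1 (0.945), FUN14 (0.943) and the glycolytic gene PGK1 (0.94), and for DUN1 VPS68 (0.973), COQ5 (0.972) and CAP1 (0.966). HXK1 fell in all 4 deletions, with log2 changes of -2.04, -1.18, -5.49 and -1.50 (SE 0.36). SML1 was most like EFM5 (0.938), YHR033W (0.922) and MRD1 (0.913), RNR4 most like SPO24 (0.92), RPL15A (0.91) and COX6 (0.907), and RFX1 most like MDJ1 (0.848), RFA3 (0.847) and PBR1 (0.844). RNR1 and RNR2 had GPI16 (0.857) and YBR096W (0.869) as the nearest.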

How the data were processed

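The deposited normalized counts (signal units, whole numbers, per library factors not given) and the deposited FPKM values (used as a score, since the authors rounded them to whole numbers) were used as the authors made them. The tools named per the submitters' processing notes were DESeq2 (1.6.3) and TopHat2 (2.0.3), with the genome build sacCer3. No source used here states the counting tool, annotation or strand setting. Libraries summed to 4829249 to 5412654 normalized counts, read depth before scaling is unknown, and whole reads could not be recovered, so no count model was run.

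For each gene, log2(normalized count + 1) was tested by limma (version 3.58.1, R 4.3.3), in 1 fit of 6 group means with an intensity trend, over 5825 genes with a mean of at least 10, with 9 contrasts, two-sided, and Benjamini-Hochberg adjustment over all tested genes with calls under 0.05. Each group had 3 biological replicates, whose spread the p-values rest on. The procedure was also run on simulated counts with changes set only in the Rvb1-tagged PIH1 deletion, and its outcome is not reported here. Levels between genes are normalized counts per kb of annotated gene length. Sequences, positions and neighbours come from the RefSeq genome and annotation of the same build, and motifs were searched in 600 bp before the start codon.

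The 9 genes, the gene lists and the alternatives were chosen with earlier results of these data known, and a fit without chromosome XVI was added after the data were seen. Named beside the 9 are the 4 R2TP genes, up to 3 genes per list with the smallest adjusted p over the 4 deletions, chromosome neighbours and the 3 most alike genes; some genes that this rule names are not reported here. Named outside that rule, after their values were seen, are MEC1, RAD9, WTM1, DIF1, TUP1, CYC8, DRE2, TRX1, POL2 and PHR1. Replicate numbers did not pair the libraries: in 15 pairs of groups, same-numbered libraries correlated from -0.38 to 0.408, all above 0.1 in 1 pair. Alternatives were other pseudocounts (0.5 and 5), filters, TMM and quantile scaling, array weights, the FPKM table, only the libraries compared, each library left out in turn, and a replicate block.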

Additional observations from a re-analysis of the deposited data

Results flagged for a closer look

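In the PIH1 deletion, 3 of the 9 genes changed differently in the 2 tagged backgrounds by the limma test of the difference itself (Rvb2-tagged minus Rvb1-tagged, n = 3 libraries in each of the 4 groups). DUN1 differed by -1.01 ± 0.12 (log2 ± SE, adjusted p = 9.58e-06). RNR4 differed by -0.32 ± 0.07 (adjusted p = 0.00185) and RNR3 by -0.80 ± 0.28 (adjusted p = 0.0272). In the same strains RVB2 stood at 311 normalized counts with tagged Rvb2 and at 1043 with tagged Rvb1, and its part in these differences was not tested. Groups of 3 libraries are too small for a test of single outlying libraries.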

How the results depend on the processing

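Of 32 calls on single genes, 21 held in every alternative that could test them, and no called change reversed. The replicate block changed no call and left the counts at 4, 4, 9 and 5 genes in the 4 deletions and at 0, 7, 0, 3 and 0 in the other comparisons; the numbers do not pair the libraries. Leaving out the genes of chromosome XVI changed no call. At a mean of at least 50 counts RNR3 and HUG1 cannot be tested, which left 2 genes called in each Rvb1-tagged deletion. With only the libraries compared, 0 passed in the Rvb1-tagged TAH1 deletion, where 74 of all tested genes passed in place of 627. In the Rvb1-tagged PIH1 deletion 1277 of all genes passed in place of 2211. In the Rvb2-tagged PIH1 and TAH1 deletions 4003 and 2529 passed in place of 4054 and 2589. In PIH1 against TAH1 with tagged Rvb1 the number rose, to 1911 from 1543. The cause of these shifts was not tested. With array weights 7 and 8 passed in the Rvb1-tagged PIH1 and TAH1 deletions, 4 in the difference of the TAH1 effects and 1 (with tagged Rvb1) in PIH1 against TAH1; the cause was not tested. Leaving out each library gave 3 to 4 genes in the Rvb1-tagged PIH1 deletion, 2 to 6 in the Rvb1-tagged TAH1 deletion (2 without wild type replicate 1 or 3 or TAH1 deletion replicate 1 or 3), 8 to 9 and 3 to 5 in the Rvb2-tagged deletions (3 without TAH1 deletion replicate 2), 5 to 7 in PIH1 against TAH1 with tagged Rvb2 (5 without PIH1 deletion replicate 1), 2 to 3 in the difference of the PIH1 effects (4 with quantile scaling), and 0 to 1 in the difference of the TAH1 effects (1, RNR2, without Rvb2-tagged wild type replicate 1).

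Changes that reversed were small and not called. With quantile scaling RNR4 was at -0.040 and 0.022 in the Rvb1-tagged and Rvb2-tagged TAH1 deletions, 0.039 between wild types and 0.062 in the TAH1 difference, RNR2 at -0.064 in the Rvb2-tagged TAH1 deletion, and RNR1 at 0.089 in PIH1 against TAH1 with tagged Rvb1 and 0.061 between wild types. With array weights RNR4 was at 0.041 in the Rvb2-tagged TAH1 deletion, RNR2, SML1 and RFX1 at -0.083, 0.0032 and -0.12 between wild types, and DUN1 at 0.054 in the TAH1 difference. With a pseudocount of 5 the log2 ratio of RNR3 to RNR1 in the Rvb2-tagged TAH1 deletion changed by 0.042. Leaving out single libraries, that ratio ran from -0.16 to 0.045. The ranges between wild types were -0.14 to 0.35 for HUG1, -0.050 to 0.0030 for RNR4, -0.080 to 0.017 for SML1, -0.010 to 0.11 for RFX1, -0.054 to 0.045 for RNR1 and -0.065 to 0.10 for RNR2. In PIH1 against TAH1 they were -0.060 to 0.014 for RNR1, -0.00089 to 0.061 for RNR4, -0.10 to 0.49 for HUG1 and -0.014 to 0.21 for RFX1 with tagged Rvb1, and -0.021 to 0.021 for RNR1 with tagged Rvb2. In the Rvb2-tagged TAH1 deletion they were -0.036 to 0.027 for RNR4 and -0.033 to 0.13 for RNR2, and for DUN1 in the TAH1 difference -0.15 to 0.0010. Other scalings moved the median of all genes by at most 0.07. The depth of each library before scaling is unknown, and RNR3 and HUG1, with 10 to 78 counts, had the widest SE (0.20 and 0.29).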
